A study of Mus musculus with 24 samples.

Results

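Livers that lack the nuclear receptor PPAR-alpha were compared here directly with livers that lack Tsc1, across all genes of the deposited read-count table. The comparison uses 8 of the 24 RNA-seq libraries of the series, 4 labelled PPAR-a KO and 4 labelled Tsc1 L-/-, which were picked by their genotype labels and not by any measured value. Of the 35275 genes in the table, 12751 had enough reads in these 8 libraries to be tested. All mice were C57BL/6 males of 8 to 10 weeks on chow that had fasted for 24 hours before the liver was taken. The Tsc1 L-/- mice carried floxed Tsc1 alleles deleted by a Cre recombinase under the albumin promoter, which is active in hepatocytes, so other liver cells keep the gene. The labels do not say whether Ppara was lost in the whole body or in the liver, and the study's text does not describe these 4 libraries or their litters, so the genotype and the colony cannot be told apart. The 4 libraries labelled Wild type served as the background, and the study's methods name as its controls littermates with floxed Tsc1 and Cpt2 alleles. A second pair of groups carries a liver deletion of Cpt2 on both sides, namely Cpt2L-/- Ppara KO and Tsc1Cpt2 L-/-, with 4 libraries each.

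PPAR-alpha is a receptor for fatty acids and their derivatives. It pairs with a retinoid X receptor on a direct repeat in DNA and, in the fasting liver, switches on the genes of fatty acid oxidation, ketone body synthesis and fatty acid transport. Tsc1 belongs to the complex that switches off Rheb and, through it, the kinase complex mTORC1, which drives protein and lipid synthesis and keeps the lysosomal transcription factors Tfeb and Tfe3 out of the nucleus when amino acids are present. Loss of Tsc1 leaves mTORC1 active during a fast, and one question of the study was how far active mTORC1 reaches into the PPAR-alpha programme. Setting the 2 knockouts side by side shows which genes part livers without the receptor from livers with an unrestrained mTORC1.

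Total counts were 15021749 to 20371204 in the PPAR-a KO libraries and 14763846 to 17501550 in the Tsc1 L-/- libraries, and no 2 libraries of a group were duplicates. Levels are given as CPM, the count of a gene relative to the TMM-scaled total of its library, in the order of replicates 1 to 4, and differences as the log2 fold change of PPAR-a KO over Tsc1 L-/- with its standard error (SE), so that negative values are lower in PPAR-a KO. Adjusted p-values come from edgeR's quasi-likelihood test with Benjamini-Hochberg adjustment over all genes tested, and a gene was called at an adjusted p under 0.05. The p-values measure the spread between these libraries, and in bulk tissue fewer cells of a type and less RNA per cell cannot be told apart. Some libraries stood apart from their groups. Tsc1 L-/- replicate 3 held 331 CPM of Srebf1 against 23.4 to 40.9 in the other Tsc1 L-/- libraries, and PPAR-a KO replicates 2 and 3 shared high levels of Pdk4, Cdkn1a and Arntl. In the second pair, the library labelled Cpt2L-/- Ppara KO replicate 1 stood apart. Its 91.9 CPM of Ppara lay above the 26.2 to 46.2 of the rest of its group. It was below the 137 or more of every library with intact Ppara. Its 3431 CPM of the PPAR-alpha target Fabp1, against 83.6 to 156, went against its label. Its level of Tsc1 was low too, at 24.3 CPM against 42.4 to 50.6 in the rest of its group. That level lay inside the range of the Tsc1 L-/- libraries. Whether this library was mixed or mislabelled was not tested. The counts and gene values in the account of that pair are therefore given with and without this library, and the plots that include the pair use all its libraries. A further division runs through the series: in 91 of the 12751 genes (0.714%) the 12 libraries of Wild type, Tsc1 L-/- and Tsc1Cpt2 L-/- did not overlap the 12 of PPAR-a KO, Cpt2 L-/- and Cpt2L-/- Ppara KO. The direct comparison, the second pair, and PPAR-a KO against Wild type lie across this division. It was noticed after the data were seen. Tsc1 L-/- and Wild type lie on the same side of it. In these 91 genes the Cpt2 L-/- libraries, with 273 to 385 CPM of Ppara, lie on the side of PPAR-a KO by the definition of the division. The source of the division was not tested. Of the genes named below, Acox3, Lamp1, Rora, Cd1d2, Hist1h2al and Rps3a3 are among the 91.

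The targeted genes followed the labels of the 8 libraries. Ppara (chr15:85734983-85802819, GRCm38) had 45.2, 13.0, 13.0 and 38.1 CPM in PPAR-a KO and 198, 137, 251 and 193 CPM in Tsc1 L-/-. The groups did not overlap, and PPAR-a KO replicates 1 and 4 kept more reads than replicates 2 and 3. The difference was -2.83 (SE 0.429, adjusted p = 0.00214), and reads of a whole gene do not show which exons were lost. Tsc1 (chr2:28641228-28691167) had 40.9, 37.9, 49.9 and 52.2 CPM in PPAR-a KO and 18, 28.6, 25.3 and 25.5 CPM in Tsc1 L-/-, a difference of 0.90 (SE 0.182, adjusted p = 0.00733). Against the Wild type level of 36.8 to 39.9 CPM, the log2 fold change of Tsc1 in Tsc1 L-/- was -0.65 (adjusted p = 0.0323), with part of the reads left in whole liver.

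The 2 knockout livers differed in 3238 of the 12751 genes tested (25.4%), 1659 higher in PPAR-a KO (13.0%) and 1579 lower (12.4%). The median log2 fold change was 0.97 among the genes called higher and -1.11 among those called lower, and 0.02 over all genes tested. The estimate was 1 or more on the log2 scale, up or down, for 782 of the genes called higher and 907 of those called lower. In 3595 of all genes tested (28.2%) the 4 libraries of one group did not overlap those of the other, and 1397 of the genes called higher and 1416 of those called lower were among them. The count fell to 1867 without PPAR-a KO replicate 3 and to 1929 without Tsc1 L-/- replicate 4, while it was 3567 without PPAR-a KO replicate 1.

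**Figure D1:**
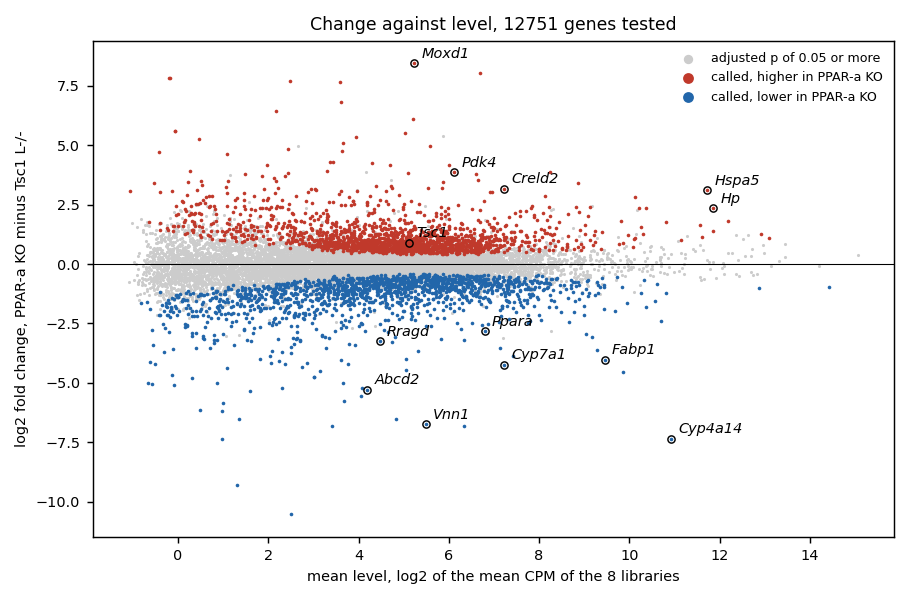
Log2 fold change of PPAR-a KO over Tsc1 L-/- (vertical axis) against mean expression (horizontal axis, log2 CPM), 1 point per gene tested, with the genes called at an adjusted p under 0.05 in colour. The 1659 genes called higher and the 1579 called lower spread over the whole range of expression.

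Set against Wild type, more genes were called in PPAR-a KO than in Tsc1 L-/-. Against the same 4 Wild type libraries, 3559 of 12955 genes (27.5%) were called in PPAR-a KO, 1915 higher (14.8%) and 1644 lower (12.7%). In Tsc1 L-/- the count was 466 of 13012 genes (3.58%), 304 higher (2.34%) and 162 lower (1.25%). PPAR-a KO and Wild type lie on opposite sides of the 12 to 12 division, while Tsc1 L-/- and Wild type lie on the same side. The part of that division in these counts, and in the later counts against Wild type, was not tested. The direct comparison and the 2 comparisons with Wild type share libraries. Their values are therefore set side by side below and nothing is read from their likeness. The count for Tsc1 L-/- was 198 without Wild type replicate 4, and that for PPAR-a KO was 2321 without the same library.

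Genes of mitochondrial beta-oxidation, which breaks fatty acids down to acetyl-CoA, were lower in PPAR-a KO. Of 20 genes, 14 were lower in PPAR-a KO than in Tsc1 L-/- and 0 higher, against 12.4% and 13.0% of all genes, with a median log2 fold change of -1.16. The 14 belong to several steps, namely the carnitine shuttle (Slc25a20 at -1.23 and Cpt2 at -1.26), the acyl-CoA dehydrogenases Acadvl (-1.26) and Acads (-1.61), the trifunctional protein Hadha (-1.18) and Hadhb (-1.20), the thiolase Acaa2 (-0.88), the isomerases Eci1 (-1.69) and Eci2 (-1.11), the reductase Decr1 (-1.14), and the electron carriers Etfa (-0.52), Etfb (-1.29) and Etfdh (-1.36). Hadh, the short-chain 3-hydroxyacyl-CoA dehydrogenase (chr3:131233419-131272101), had the largest fall, with 98.1, 88.3, 78.3 and 53.1 CPM in PPAR-a KO and 300, 330, 384 and 385 CPM in Tsc1 L-/-. The 2 groups lay far apart without overlap, and the difference was -2.13 (SE 0.217, adjusted p = 0.000473). The count stayed at 13 or 14 whichever library was left out. Cpt1a, the gated entry step, did not pass: it had 869, 715, 511 and 708 CPM in PPAR-a KO and 1173, 941, 672 and 989 CPM in Tsc1 L-/-, overlapping ranges with a difference of -0.42 (SE 0.235, adjusted p = 0.207). Against Wild type, 19 of the 20 genes were lower in PPAR-a KO (median -1.69) and 7 in Tsc1 L-/- (median -0.62). Of all genes 12.7% and 1.25% were called lower in these comparisons.

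The peroxisomal pathway, which shortens very long and branched fatty acids, was lower in 12 of 20 genes and higher in 0. The median was -0.96, and 12.4% of all genes were lower and 13.0% higher. Abcd2, a peroxisomal importer of very long acyl-CoAs (chr15:91145884-91191807), was close to absent in PPAR-a KO at 1.05, 0.377, 0.893 and 1.24 CPM, and had 45.8, 34.4, 27.6 and 34.5 CPM in Tsc1 L-/-. That is a difference of -5.29 (SE 0.313, adjusted p = 2.86e-05) between groups that lie far apart. Ehhadh, the bifunctional enzyme (chr16:21761287-21787844), had 154, 127, 109 and 95.9 CPM in PPAR-a KO and 1805, 1086, 142 and 713 CPM in Tsc1 L-/-. Tsc1 L-/- replicate 3 fell inside the PPAR-a KO range, and the difference was -2.94 (SE 0.606, adjusted p = 0.00836). Crot, which hands shortened chains to carnitine, had 174, 91.4, 100 and 144 CPM against 1239, 409, 302 and 775, without overlap (-2.42, SE 0.430, adjusted p = 0.00425). Acaa1b (-2.15), Hsd17b4 (-2.02), Decr2 (-1.58), Ech1 (-1.5), Acot8 (-1.26), Acox3 (-1.19), Acaa1a (-1.11) and Amacr (-0.81) were also among the 12. Against Wild type the pathway was lower in 16 genes in PPAR-a KO (median -1.25) and in 5 in Tsc1 L-/- (median -0.52). Of all genes 12.7% and 1.25% were called lower in these comparisons.

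Omega-hydroxylation, the cytochrome P450 route that makes dicarboxylic acids, held the largest fall of the 3 oxidation lists. Cyp4a14, a fatty acid omega-hydroxylase (chr4:115486200-115496142) had 58.0, 4.52, 21.1 and 12.2 CPM in PPAR-a KO and 5809, 4209, 513 and 5018 CPM in Tsc1 L-/-. The lowest Tsc1 L-/- library, replicate 3, was still above every PPAR-a KO library, and the difference was -7.34 (SE 1.05, adjusted p = 0.00195), or -8.26 without PPAR-a KO replicate 1. In all, 7 of 13 genes were lower and 0 higher (median -0.63), among them Cyp4a10 (-4.52), Cyp4a31 (-2.85), Cyp4a32 (-2.53) and the aldehyde dehydrogenase Aldh3a2 (-2.13). The count was 4 without Tsc1 L-/- replicate 4 or without PPAR-a KO replicate 3. Cyp4a genes are near copies of each other, so the authors' counting could have split or lost reads between them. Of 12 acyl-CoA thioesterases, 1 was lower (Acot13, -1.33) and 1 higher, a share of 16.7% below the 25.4% of all genes.

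Ketone body synthesis and export was lower in 5 of 8 genes and higher in 1 (median -0.74), against 12.4% and 13.0% of all genes. Bdh1, which reduces acetoacetate to beta-hydroxybutyrate (chr16:31422280-31458901), had 128, 25.6, 21.0 and 42.2 CPM in PPAR-a KO and 304, 177, 247 and 353 CPM in Tsc1 L-/-, against 394 to 587 CPM in Wild type. The 3 groups did not overlap, with PPAR-a KO lowest, and the direct difference was -2.32 (SE 0.543, adjusted p = 0.0145), or -3.18 without PPAR-a KO replicate 1. Acat1 (-1.06) and the transporter genes Bsg (-0.75) and Slc16a7 (-0.74) also fell. Slc16a6, an exporter of beta-hydroxybutyrate, went the other way, with 13.2, 54.4, 39.7 and 17.9 CPM in PPAR-a KO and 2.98 to 6.85 CPM in Tsc1 L-/- (2.61, SE 0.462, adjusted p = 0.00442).

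**Figure D2:**
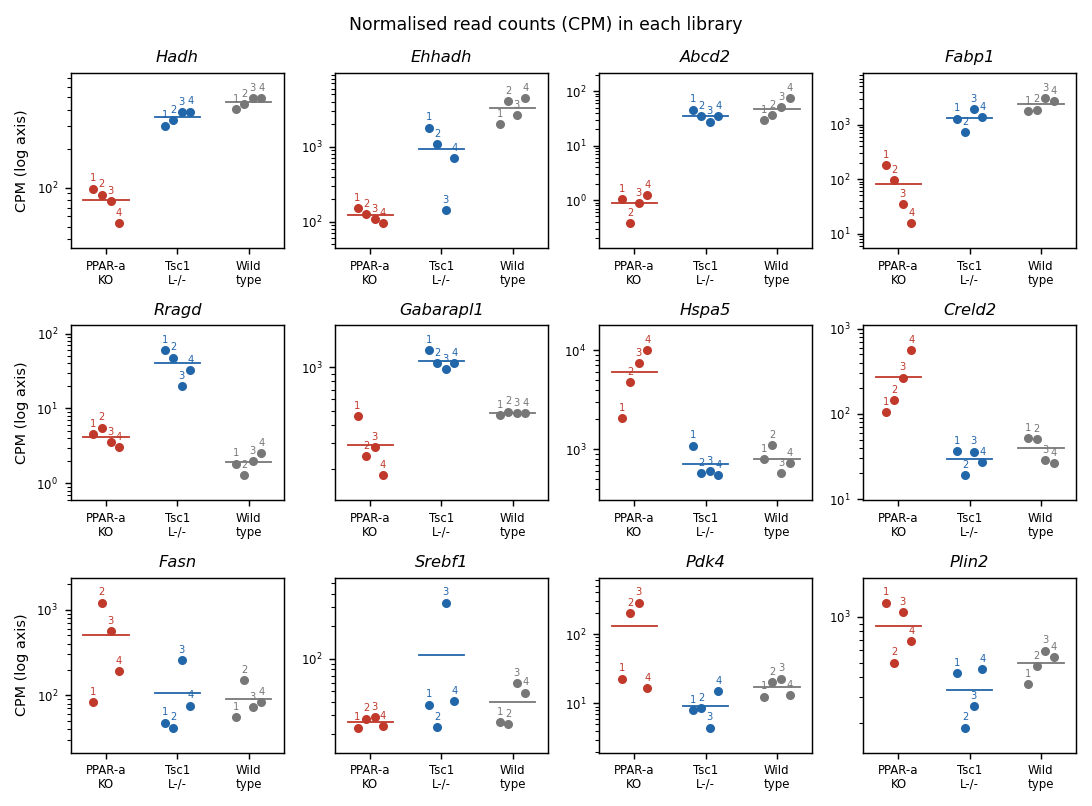
CPM of 12 genes (vertical axes, log scale) in the 4 libraries of PPAR-a KO, Tsc1 L-/- and Wild type, each point a library marked by its replicate number and each line a group mean. Hadh, Abcd2 and Fabp1 are lowest in PPAR-a KO, Rragd and Gabarapl1 are highest in Tsc1 L-/-, Hspa5 and Creld2 are highest in PPAR-a KO, and Tsc1 L-/- replicate 3 lies apart for Ehhadh, Fasn and Srebf1.

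Fabp1 is the abundant cytosolic fatty acid carrier of hepatocytes. Its level was 179, 96.3, 34.5 and 15.5 CPM in PPAR-a KO and 1286, 717, 1921 and 1369 CPM in Tsc1 L-/-, without overlap (-4.02, SE 0.717, adjusted p = 0.00488), and -4.75 without PPAR-a KO replicate 1. Promoter windows of 250 bases before to 50 after the RefSeq start (GRCm38.p6) were found for 9407 of the genes tested. They were searched on both strands for the PPAR direct repeat, that is AGGNCA, any base and AGGNCA. It occurred in 32 windows of 9407 (0.340%), in 5 of 1187 genes called lower (0.421%) and in 4 of 1246 called higher (0.321%), and in 0 of the 24 genes of the oxidation, thioesterase and ketone body lists that were called lower and had a window. Fabp1 holds it on the other strand, 67 bases before the start. The gene of the secreted stress factor Gdf15 holds it on its own strand, 55 bases before the start, and Gdf15 rose in PPAR-a KO, with 66.8, 213, 427 and 26.8 CPM against 6.51 to 22.8 (3.53, SE 0.825, adjusted p = 0.0158), or 2.71 without PPAR-a KO replicate 3. Both are shown, with the match in capitals, because 1 fell and 1 rose with the same letters near the start. The Fabp1 stretch is chr6:71199629-71199826 on the plus strand, cut where the deposited gene begins, and the Gdf15 stretch is chr8:70632457-70632706 on the minus strand.
Fabp1: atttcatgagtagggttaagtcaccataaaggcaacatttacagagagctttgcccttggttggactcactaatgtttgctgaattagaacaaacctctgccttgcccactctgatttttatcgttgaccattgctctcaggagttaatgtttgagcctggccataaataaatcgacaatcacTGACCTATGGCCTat
Gdf15: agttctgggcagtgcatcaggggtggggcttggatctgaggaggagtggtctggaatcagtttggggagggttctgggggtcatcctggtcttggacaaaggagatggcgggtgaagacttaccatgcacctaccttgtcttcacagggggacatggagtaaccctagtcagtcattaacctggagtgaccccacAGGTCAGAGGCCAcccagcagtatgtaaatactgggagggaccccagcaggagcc
A match is a description of letters in a window and not of a bound site, and genes without one may have their elements elsewhere.

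Lipid storage and uptake genes were mixed. Of 17 lipid droplet genes 6 were lower and 2 higher (median -0.26), and of 11 uptake and binding genes 3 were lower and 1 higher (median -0.83). Of all genes 12.4% were lower and 13.0% higher. Plin2, the main droplet coat protein of the liver and a known PPAR-alpha target, had 1234, 500, 1064 and 689 CPM in PPAR-a KO and 426, 188, 261 and 452 CPM in Tsc1 L-/-. All PPAR-a KO libraries were above all Tsc1 L-/- libraries (1.39, SE 0.352, adjusted p = 0.0183), and the adjusted p was 0.0506 without PPAR-a KO replicate 3 and 0.0524 without Tsc1 L-/- replicate 3. Wild type, at 362 to 599 CPM, overlapped both groups, and the difference from Wild type was not called in either (adjusted p = 0.0548 for PPAR-a KO and 0.292 for Tsc1 L-/-). The lipases Mgll, which cleaves monoacylglycerol, and Lipe, the hormone-sensitive lipase, were lower (-1.05 and -1.11), while the coat protein Plin5 overlapped between the groups at 18.1 to 77.3 CPM and 35.7 to 60.6 CPM (-0.31, SE 0.431, adjusted p = 0.627). Without PPAR-a KO replicate 3, Plin5 passed at -0.99 (adjusted p = 0.0328). The droplet counts were 3 lower without Tsc1 L-/- replicate 4 and 0 higher without PPAR-a KO replicate 3, and the uptake list had 1 lower without Tsc1 L-/- replicate 1.

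Pdk4, the kinase that shuts off pyruvate dehydrogenase in fasting and another known PPAR-alpha target, was higher in PPAR-a KO. Its levels of 22.7, 198, 284 and 16.4 CPM split the group, with replicates 2 and 3 far above replicates 1 and 4, and every one lay above the 4.48 to 15 CPM of Tsc1 L-/-. The difference of 3.85 (SE 0.933, adjusted p = 0.0181) lost its call without PPAR-a KO replicate 3 (3.16, adjusted p = 0.0566) or replicate 2 (3.56, adjusted p = 0.0586). Among 17 hepatokines secreted in fasting, 2 were higher and 3 lower (median -0.10), a share of 29.4% near the 25.4% of all genes. Fgf21, the fasting hormone under PPAR-alpha control, had 1.87, 0.0753, 0.275 and 0.549 CPM in PPAR-a KO and 34.3, 8.48, 1.26 and 24.0 CPM in Tsc1 L-/- (-4.49, SE 1.03, adjusted p = 0.014). Tsc1 L-/- replicate 3 fell inside the PPAR-a KO range for Fgf21, and the difference was -5.76 without PPAR-a KO replicate 1 and lost its call without PPAR-a KO replicate 3 (adjusted p = 0.0546). Igfbp1, a secreted binder of Igf1 that fasting raises, overlapped between the groups at 807 to 1938 CPM and 160 to 1206 CPM (0.77, SE 0.585, adjusted p = 0.356). Tsku, a secreted protein of the liver, was higher at 281 to 806 CPM against 64.2 to 129 (2.41, adjusted p = 0.00138).

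**Figure D3:**
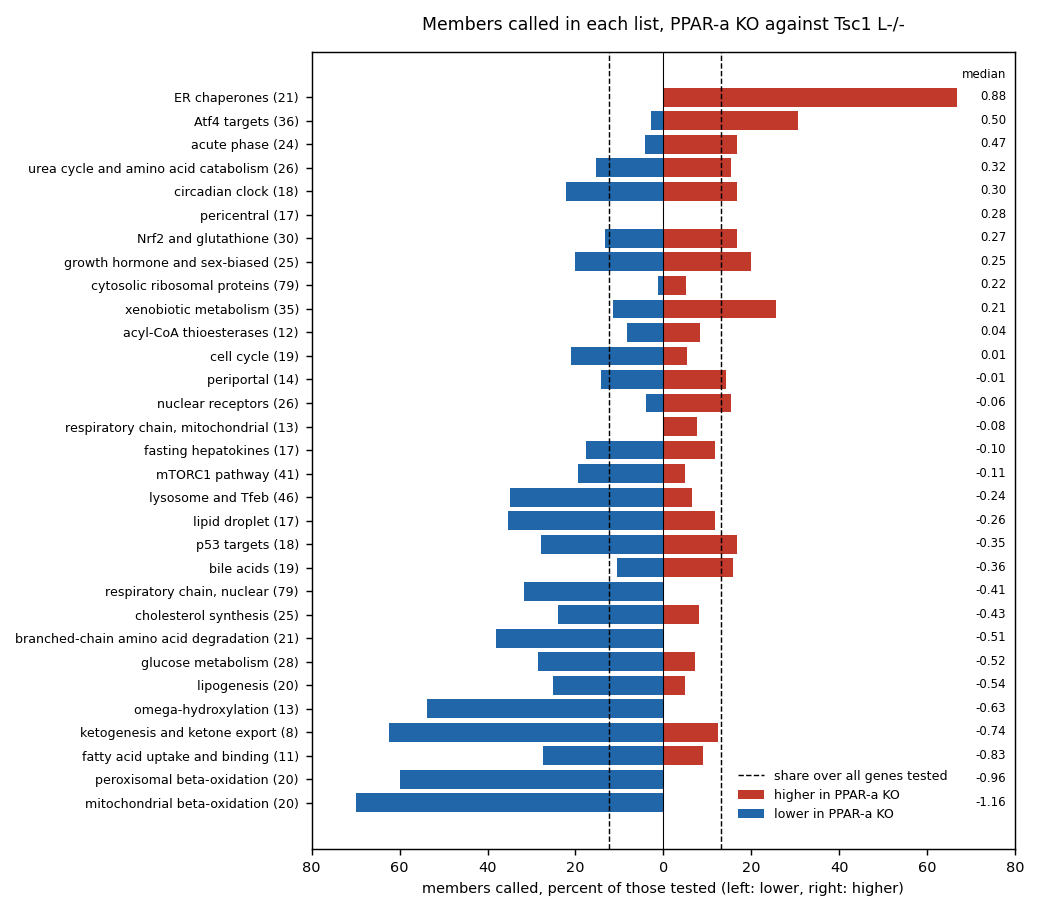
Percent of the tested members of each pathway list called higher (right) or lower (left) in PPAR-a KO than in Tsc1 L-/-, with dashed lines at the shares over all genes tested (13.0% and 12.4%) and the median log2 fold change of each list at the right. Lists of cell type markers are not plotted. The mitochondrial beta-oxidation list, at 14 of 20, lies furthest to the lower side and the ER chaperones, at 14 of 21, to the higher side.

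Several genes of the lysosome and of the machinery that places mTORC1 on it were highest in Tsc1 L-/-. Rragd, the Rag GTPase that recruits mTORC1 to lysosomes and is itself a target of Tfeb (chr4:32983037-33022180), had 59.6, 47.9, 19.9 and 32.4 CPM in Tsc1 L-/-, 4.52, 5.57, 3.57 and 3.02 CPM in PPAR-a KO and 1.28 to 2.54 CPM in Wild type. The 3 groups did not overlap, and the direct difference was -3.25 (SE 0.353, adjusted p = 0.000486). Against Wild type, Rragd rose by 4.36 on the log2 scale in Tsc1 L-/- (adjusted p = 0.00121) and by 1.11 in PPAR-a KO (adjusted p = 0.0237). Gabarapl1, a member of the Atg8 family that builds autophagosomes, had 460, 243, 280 and 180 CPM in PPAR-a KO and 1301, 1061, 963 and 1064 CPM in Tsc1 L-/-, without overlap (-1.91, SE 0.283, adjusted p = 0.00186), against 465 to 493 CPM in Wild type.

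Of 46 lysosome and Tfeb target genes, 16 were lower in PPAR-a KO than in Tsc1 L-/- and 3 higher, with a median of -0.24. The 16 include the hydrolases Hexa (-1.57) and Ctsb (-0.98), the membrane protein Lamp1 (-0.95) and Tfeb itself (-1.16). The 3 higher genes were Sqstm1, an autophagy receptor (1.1, adjusted p = 0.0405), Grn, the precursor of granulins (1.28, adjusted p = 0.0217), and Tfe3 (0.89, adjusted p = 0.0117). Sqstm1 overlapped between the groups, at 1001 to 1977 CPM against 339 to 1037, and lost its call in 6 of the 8 fits that left 1 library out, while Grn lost it in 4, at an adjusted p of up to 0.0622. Against Wild type the list was higher in 12 genes and lower in 0 in Tsc1 L-/- (median 0.32), where 2.34% and 1.25% of all genes were called. In PPAR-a KO it was higher in 8 and lower in 5 (median 0.07), and the 28.3% called was near the 27.5% of all genes. The count of lower genes was 10 without Tsc1 L-/- replicate 4 or without PPAR-a KO replicate 3. Among 41 genes of the mTORC1 pathway 8 were lower and 2 higher (median -0.11), a share of 24.4% near the 25.4% of all genes. Deptor, an inhibitor bound to mTOR and a member of that list, was lower at 37.3 to 91.1 CPM against 324 to 444 (-2.49, SE 0.310, adjusted p = 0.000874). Rictor, the scaffold of mTORC2, was higher at 34.9 to 46.0 CPM against 18.6 to 27.2 (0.95, adjusted p = 0.00496). The count of lower genes was 5 without Tsc1 L-/- replicate 1.

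Most chaperones of the endoplasmic reticulum that were tested rose in PPAR-a KO. They fold and grade secreted proteins, and their genes are switched on together by the unfolded protein response through the factors Atf6 and Xbp1. Hspa5, the lumenal Hsp70 also known as BiP (chr2:34771970-34776531), had 2075, 4749, 7439 and 9917 CPM in PPAR-a KO and 1088, 575, 604 and 546 CPM in Tsc1 L-/-. The groups did not overlap, with replicate 1 the lowest of PPAR-a KO and also the highest of Tsc1 L-/-, and the difference was 3.11 (SE 0.466, adjusted p = 0.00195). Creld2, a secreted stress chaperone (chr15:88819646-88826681), had 104, 146, 267 and 556 CPM against 36.9, 19.0, 36.2 and 27.0, again without overlap (3.17, SE 0.507, adjusted p = 0.00286), and its difference was 2.53 without PPAR-a KO replicate 4. Of 21 chaperones and folding enzymes, 14 were higher and 0 lower (median 0.88), among them Sdf2l1 (2.65), Hyou1 (2.41), Hsp90b1 (2.35), Pdia4 (2.18), Manf (2.16), Syvn1 (1.62), Herpud1 (1.57) and Calr (0.88). The count was 8 without Tsc1 L-/- replicate 2, without Tsc1 L-/- replicate 4 or without PPAR-a KO replicate 3. Against Wild type, 12 were higher in PPAR-a KO (median 1.04) and 0 were called in Tsc1 L-/- (median 0.03). Of all genes 14.8% were called higher in PPAR-a KO, and only 3.58% were called at all in Tsc1 L-/-.

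The ER stress element, that is CCAAT, any 9 bases and CCACG, was looked for in the same promoter windows after this group had been seen. It was present in 18 of 9407 windows (0.191%), in 7 of 1246 genes called higher (0.562%) and in 0 of 1187 called lower. Of the 12 chaperone genes that were higher and had a window, 5 held it (41.7%): Hspa5, Hsp90b1, Creld2, Calr and Syvn1. The element in Hspa5 lies 65 bases before the RefSeq start, inside the gene as the deposited table bounds it, so that stretch is not shown. Creld2 carries 1 copy on the other strand, 126 bases before the start, and Hsp90b1 carries 2, the further one 212 bases before the start. Both are shown for the spacing of the 2 ends of the element, which the capitals mark. The stretches are chr15:88819396-88819645 on the plus strand for Creld2, and chr10:86705510-86705694 on the minus strand for Hsp90b1, cut where the deposited gene begins.
Creld2: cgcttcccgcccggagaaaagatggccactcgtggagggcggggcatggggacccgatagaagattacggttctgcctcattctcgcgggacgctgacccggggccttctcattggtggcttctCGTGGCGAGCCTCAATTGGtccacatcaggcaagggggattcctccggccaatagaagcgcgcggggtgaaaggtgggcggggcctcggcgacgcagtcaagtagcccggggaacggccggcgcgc
Hsp90b1: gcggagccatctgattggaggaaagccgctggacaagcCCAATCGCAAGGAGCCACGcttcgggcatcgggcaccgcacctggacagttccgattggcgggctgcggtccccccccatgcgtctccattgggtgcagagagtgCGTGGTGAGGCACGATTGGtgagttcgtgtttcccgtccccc
The other motifs searched were near the background in the genes called. The Atf4 element TGATGNAA was in 2.77% of all windows, 3.21% of the higher and 2.44% of the lower genes, the CLEAR core of Tfeb (GTCAC joined to GTGAC) in 78 of 9407, 11 of 1246 and 9 of 1187 windows, and the sterol element TCACNCCAC in 1.52%, 1.52% and 1.77%.

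Targets of Atf4, the factor of amino acid shortage, were higher in 11 of 36 genes and lower in 1 (median 0.50). Of all genes 13.0% were higher and 12.4% lower. Mthfd2, a mitochondrial folate enzyme, had 12.9, 6.33, 16.7 and 16.4 CPM against 2.54, 1.63, 1.01 and 1.31, without overlap (3.01, SE 0.382, adjusted p = 0.000928). Atf3, a stress factor downstream of Atf4, had 9.41 to 31.3 CPM against 0.407 to 6.65 (2.61, adjusted p = 0.0178), or 3.34 without Tsc1 L-/- replicate 1, and lost its call without Tsc1 L-/- replicate 4 (adjusted p = 0.0512). The amino acid carrier Slc7a1 (2.52), the enzyme of cysteine synthesis Cth (1.80) and Atf4 itself (1.01) were also higher. Asns, asparagine synthetase, overlapped widely at 21.2 to 62.8 CPM in PPAR-a KO and 8.58 to 107 CPM in Tsc1 L-/- (-0.24, SE 0.637, adjusted p = 0.806), and both ranges were above the 1.08 to 7.23 CPM of Wild type. The count of higher genes depended on the libraries, with 3 without Tsc1 L-/- replicate 4, 5 without Tsc1 L-/- replicate 3, 6 without PPAR-a KO replicate 3 and 7 without Tsc1 L-/- replicate 2. Against Wild type the list was higher in 25 genes in PPAR-a KO (median 1.06) and in 2 in Tsc1 L-/- (median 0.34). Of all genes 14.8% and 2.34% were called higher in these comparisons.

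Among genes of glucose use and lipid synthesis, several differences moved when Tsc1 L-/- replicate 3 was left out. Srebf1, the lipogenic transcription factor, had 23.1 to 28.8 CPM in PPAR-a KO and 37.7, 23.4, 331 and 40.9 CPM in Tsc1 L-/- (-2.06, SE 0.788, adjusted p = 0.0846), and the difference was -0.39 without replicate 3 and passed at -2.39 without Tsc1 L-/- replicate 2 (adjusted p = 0.0446). Fasn, fatty acid synthase, had 83.0, 1212, 557 and 192 CPM against 48.0, 41.9, 259 and 75.8 (2.29, SE 0.881, adjusted p = 0.0862), and passed without replicate 3 at 3.23 (adjusted p = 0.0328) and without PPAR-a KO replicate 1 at 2.64 (adjusted p = 0.0342). With all 24 libraries in the fit both passed (adjusted p = 0.0106 for Srebf1 and 0.0137 for Fasn), as did Fasn by DESeq2 (0.0499). Pklr, the liver pyruvate kinase, was lower at 56.2 to 93.6 CPM against 94.2 to 492 (-1.75, adjusted p = 0.0267), or -1.02 without replicate 3, and lost its call without Tsc1 L-/- replicate 4 (adjusted p = 0.0503) or without PPAR-a KO replicate 1, 3 or 4 (0.0527, 0.0795 and 0.0633).

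In the glucose list 8 of 28 genes were lower and 2 higher (median -0.52), or 35.7% in all. G6pc, the catalytic subunit that releases glucose from the liver, had 171, 171, 93.3 and 93.2 CPM in PPAR-a KO and 376, 398, 591 and 498 CPM in Tsc1 L-/-, without overlap (-1.81, SE 0.275, adjusted p = 0.00203). Pck1, the first committed enzyme of gluconeogenesis, had 2511 to 3783 CPM against 3582 to 5824 and did not pass by the edgeR fit (-0.60, SE 0.233, adjusted p = 0.0813), but did by DESeq2 (adjusted p = 0.0210), by edgeR on all 24 libraries (0.0457) and by limma on both FPKM scales (0.0499 and 0.0481). Of 20 lipogenesis genes 5 were lower and 1 higher (median -0.54), a share of 30.0% near the 25.4% of all genes, and the lower ones included the makers of polyunsaturated chains Fads2 (-2.0, adjusted p = 0.00719) and Elovl2 (-1.99, adjusted p = 0.0125). Of 25 genes of cholesterol synthesis 6 were lower and 2 higher (median -0.43), against 12.4% and 13.0% of all genes. Cyp51, the lanosterol demethylase, was higher (1.11), and Acat2, the cytosolic thiolase that starts the pathway, was lower (-1.62). The counts moved when 1 library was left out, to 5 lower glucose genes without PPAR-a KO replicate 3, 3 higher lipogenesis genes without Tsc1 L-/- replicate 3, and 4 lower cholesterol genes without Tsc1 L-/- replicate 3.

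Of 19 genes of bile acid synthesis and transport 3 were higher and 2 lower (median -0.36), and the 26.3% called was close to the 25.4% of all genes. Cyp7a1, the first enzyme of the classical route, had 28.0, 7.08, 3.71 and 21.6 CPM in PPAR-a KO and 211, 693, 100 and 134 CPM in Tsc1 L-/-, without overlap (-4.23, SE 0.827, adjusted p = 0.00734), and -3.29 without Tsc1 L-/- replicate 2. Cyp8b1, which sets the share of cholic acid, was also lower, at 122 to 316 CPM against 327 to 1093 (-1.75, adjusted p = 0.0113). Cyp7b1, of the alternative route, was higher, at 319 to 425 CPM against 47.2 to 137 (2.08, SE 0.297, adjusted p = 0.00154). The list had 1 higher without PPAR-a KO replicate 3 and 5 lower without PPAR-a KO replicate 1.

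Some mitochondrial genes beyond beta-oxidation were lower as well. Of 79 nuclear genes of the respiratory chain 25 were lower in PPAR-a KO and 0 higher, against 12.4% and 13.0% of all genes. Their median was -0.41, and Cox7a1 (-3.31), Atp5sl (-1.34) and Atp5k (-1.1) moved most. The count was 15 without Tsc1 L-/- replicate 1, 2 or 4, and 5 of the 25 reached 1 on the log2 scale. Of the 13 genes on the mitochondrial genome 1 was higher and 0 lower (median -0.08), and these genes took 4.38% to 6.24% of the counts in PPAR-a KO and 4.91% to 6.82% in Tsc1 L-/-. Branched-chain amino acid degradation was lower in 8 of 21 genes and higher in 0 (median -0.51), among them Hsd17b10, a dehydrogenase of isoleucine breakdown (-1.58, adjusted p = 0.0106), and Mccc2, a carboxylase subunit of leucine breakdown (-0.97, adjusted p = 0.0016). The count was 4 without PPAR-a KO replicate 3. The urea cycle and amino acid list had 4 genes higher and 4 lower of 26 (median 0.32), a share of 30.8% near the 25.4% of all genes. Otc, ornithine transcarbamylase, had 171, 204, 158 and 164 CPM in PPAR-a KO and 411, 405, 566 and 344 CPM in Tsc1 L-/- (-1.30, SE 0.200, adjusted p = 0.00215), while Aass, the first enzyme of lysine breakdown, was higher at 553 to 3450 CPM against 293 to 508 (2.36, adjusted p = 0.00896). The count of higher genes in this list was 1 without Tsc1 L-/- replicate 3, Tsc1 L-/- replicate 4, PPAR-a KO replicate 2 or PPAR-a KO replicate 3. Of 79 cytosolic ribosomal protein genes 4 were higher and 1 lower (median 0.22), a share of 6.33% below the 25.4% of all genes. In this list 25 were higher without PPAR-a KO replicate 4.

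In the acute phase list 4 of 24 genes were higher and 1 lower (median 0.47), and the 20.8% called was below the 25.4% of all genes. Hp, the acute phase protein haptoglobin, had 4592, 7115, 7084 and 6083 CPM in PPAR-a KO and 835, 1423, 1885 and 776 CPM in Tsc1 L-/- (2.34, SE 0.330, adjusted p = 0.0014). Wild type lay between at 2966 to 4220 CPM without overlapping either group, and against it Hp was higher in PPAR-a KO (0.83, adjusted p = 0.0198) and lower in Tsc1 L-/- (-1.51, adjusted p = 0.0193). Fgb, the fibrinogen beta chain, had 3014 to 10181 CPM against 1256 to 2960 (1.82, adjusted p = 0.0103). Of 25 genes under growth hormone or sex control 5 were higher and 5 lower (median 0.25), or 40.0% in all, and the lower count was 1 without Tsc1 L-/- replicate 4. Sult1e1, an oestrogen sulfotransferase, had 7.31 to 43.5 CPM against 0 to 3.39 (4.75, adjusted p = 0.0162), a difference that was 8.05 without Tsc1 L-/- replicate 2 and lost its call without PPAR-a KO replicate 3 (adjusted p = 0.0519). Igfals, the subunit that holds Igf1 in serum, was lower at 11.3 to 30.3 CPM against 63.9 to 113 (-2.25, adjusted p = 0.0014).

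Of 35 genes of xenobiotic metabolism 9 were higher and 4 lower (median 0.21), against 13.0% and 12.4% of all genes, with 5 higher without Tsc1 L-/- replicate 4. Nr1i2, the pregnane X receptor, had 112 to 244 CPM against 58.9 to 75.2 (1.44, adjusted p = 0.00452), and the sulfotransferase Sult5a1 had 8.72 to 16.2 CPM against 58.8 to 98.5 (-2.59, SE 0.243, adjusted p = 0.000352). Among 30 Nrf2 and glutathione genes 5 were higher and 4 lower (median 0.27), a share of 30.0% near the 25.4% of all genes, and the lower count was 1 without Tsc1 L-/- replicate 3. Gstm3, a glutathione transferase, had 420, 43.6, 139 and 122 CPM against 6.92 to 24.8 (3.80, SE 0.692, adjusted p = 0.00541), or 2.97 without PPAR-a KO replicate 1. Gstm2 was higher too (2.41, adjusted p = 0.00618), and reads of the Gstm genes may be split between near copies. Gstt2, of another transferase class, was lower at 17.9 to 44.2 CPM against 65.6 to 118 (-1.78, adjusted p = 0.00331).

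The clock genes Arntl and Rora, of the positive limb and its activator, were higher, Arntl at 8.54, 41.0, 35.2 and 11.8 CPM against 2.46 to 5.30 (2.48, adjusted p = 0.00834) and Rora at 126 to 228 CPM against 56.5 to 67.5 (1.54, adjusted p = 0.00136). Dbp, an output gene that peaks in the opposite phase, was lower at 8.31 to 24.2 CPM against 55.8 to 73.1 (-1.80, adjusted p = 0.00287). The list had 3 higher and 4 lower of 18 (median 0.30), against 13.0% and 12.4% of all genes. The labels give no hour of collection, so a part of clock time in these values was not tested. Of 18 p53 targets 3 were higher and 5 lower (median -0.35), or 44.4% in all, against 25.4% of all genes. Cdkn1a, the p21 cell cycle inhibitor, had 82.8, 333, 360 and 79.5 CPM against 6.88 to 36.5 (3.04, adjusted p = 0.0114), and Eda2r, a receptor of the TNF family, had 0.206 to 0.548 CPM against 2.85 to 11.1 (-3.99, SE 0.484, adjusted p = 0.000769). Eda2r and Bax, a promoter of apoptosis, were also higher in Tsc1 L-/- than in Wild type (2.94, adjusted p = 0.00573, and 0.84, adjusted p = 0.00878). The lower p53 count was 2 without PPAR-a KO replicate 3. Of the remaining lists, cell cycle genes had 1 higher and 4 lower of 19 (median 0.01), nuclear receptors and coactivators 4 and 1 of 26 (median -0.06), periportal genes 2 and 2 of 14 (median -0.01) and pericentral genes 0 and 0 of 17 (median 0.28). The shares called of the first 3, at 26.3%, 19.2% and 28.6%, were near or below the 25.4% of all genes. Among the coactivators, Ppargc1a, which drives mitochondrial genes, was lower at 6.46 to 13.4 CPM against 18.6 to 41.1 (-1.5, adjusted p = 0.00722).

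Of the marker genes of other cell types, those of red blood cells differed in every member tested. All 6 red cell genes tested were higher in PPAR-a KO (median 2.05), with a summed level of 490, 1970, 425 and 1409 CPM against 364, 141, 135 and 456, and the groups overlapped for each of the 6. Their part in the other differences was not tested. Kupffer cell and macrophage markers had 1 higher and 2 lower of 15, at a sum of 486 to 589 CPM against 468 to 754. Endothelial markers had 2 higher and 1 lower of 10, at 569 to 685 CPM against 540 to 659. Of all genes 25.4% were called, which is near the 3 of 15 and the 3 of 10 of these markers. Of the endothelial genes Vwf was higher (1.44, adjusted p = 0.00496) and the sinusoidal scavenger receptor Stab2 lower (-0.86, adjusted p = 0.00442). Stellate cell genes had 0 higher and 1 lower of 11, cholangiocyte genes 1 and 0 of 5, the neutrophil genes 0 and 0 of 2, and 1 lymphocyte gene was tested and lower. No adipocyte marker had enough reads to be tested, with a summed level of at most 0.275 CPM, and the 1 acinar gene tested was not called. Hepatocyte markers, which define the tissue, were abundant in both groups, at 62523 to 85533 CPM against 48185 to 71838.

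The largest falls and rises, taken over all genes by size among those with separate groups and at least 5 CPM in the higher group, held few genes of the pathways above. On the falling side, Vnn1, a pantetheinase and known PPAR-alpha target (chr10:23894688-23905343), had 1.64, 0.0753, 0.275 and 1.1 CPM against 157, 39.2, 50.5 and 111 (-6.74, SE 0.745, adjusted p = 0.000665), and -7.47 without PPAR-a KO replicate 1. Gm11127, a gene of the major histocompatibility region, had no read in any PPAR-a KO library and 116 to 214 reads in Tsc1 L-/-. Taking 3 reads per library as the floor, it was at least 59.0-fold lower in PPAR-a KO, and 1 of the 4 Wild type libraries also had none. Mup9, a major urinary protein gene with many near copies, had 0.904 to 1.99 CPM against 15.1 to 303 (-6.81, adjusted p = 0.00452). Rps3a3 (-6.53) and Hist1h2al (-6.83) fell as well, and Cd1d2, an antigen-presenting molecule, had 0.320 to 0.828 CPM against 12.8 to 38.2 (-5.74, SE 0.459, adjusted p = 0.000154). These 3 are among the 91 genes that divide the series into 12 and 12 libraries, and all of them have near copies in the genome to which reads could be assigned. On the rising side, Rpl3-ps1, a ribosomal pseudogene, had 29.8 to 85.0 CPM against 1.01 to 1.83 (5.49, adjusted p = 5.38e-05). Serpina12, the secreted protein vaspin, had 79.1, 57.0, 91.0 and 64.8 CPM against 0, 1.42, 2.59 and 0.249 (6.10, SE 0.758, adjusted p = 0.00111), and 7.06 without Tsc1 L-/- replicate 3. Moxd1, a monooxygenase-like protein, had 30.3, 62.0, 74.7 and 133 CPM against 0, 0.814, 0 and 0.0623 (8.44, SE 0.876, adjusted p = 0.000526), but Wild type ranged from 0 to 35.5 CPM. Without Tsc1 L-/- replicate 2 the fitted value for Moxd1 was 11.37. Gldn, a cell adhesion protein also known as gliomedin, had 32, 12, 16.4 and 34.7 CPM against 0.423, 0, 0 and 0 (7.66, SE 0.793, adjusted p = 0.000486), with a fitted value of 11.56 without Tsc1 L-/- replicate 1.

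Some differences held across the whole series. In 140 of the 12751 genes (1.10%) the 8 libraries labelled as lacking Ppara did not overlap the other 16, and 131 of these were among the 3238 called here (4.05%), 57 higher and 74 lower without Ppara. For the 8 libraries that lack Tsc1 the number was 62 genes (0.486%), with 58 among those called (1.79%), of which 54 were higher and 4 lower without Tsc1. The 12 to 12 division described above held 87 of the called genes (2.69%), 47 higher and 40 lower in the set that includes Tsc1 L-/-. Any gene in these sets has separate groups in the direct comparison by construction, so its being called there gives no support to the calls. Within 5 Mb of the targeted loci, genes were not called more often than on the rest of their chromosomes. Near Ppara 23.5% of 98 genes were called, against 29.7% of the rest of chromosome 15, and near Tsc1 it was 21.6% of 162 genes, against 23.4% of the rest of chromosome 2. Within 2 Mb of Ppara 31.6% of 19 genes were called, against 28.3% of the rest. Creld2 lies 3.054 Mb from Ppara and Abcd2 5.4 Mb, and the part of the locus in their differences was not tested. In the histocompatibility region (chr17:33000000-38000000) 12 genes were higher and 15 lower of 132 (20.5%).

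The same contrast could be asked in livers that also lack Cpt2, the enzyme that completes the entry of long fatty acids into mitochondria. It used libraries other than the 8 above. This pair lies across the same 12 to 12 division as the first, and the part of that division in any likeness of the pairs was not tested. Cpt2L-/- Ppara KO and Tsc1Cpt2 L-/- differed in 2224 of 12917 genes (17.2%), 1114 higher (8.62%) and 1110 lower (8.59%), and in 3337 of 13189 (25.3%), 1611 higher (12.2%) and 1726 lower (13.1%), without Cpt2L-/- Ppara KO replicate 1. The count was 1202 without Tsc1Cpt2 L-/- replicate 4. Of the 3181 genes called in the first pair and tested in both, 2109 (66.3%) had the same sign in the second, against 57.8% of all 12481 genes tested in both. Of these genes 672 (21.1%) were called with the same sign and 117 with the opposite one. Without Cpt2L-/- Ppara KO replicate 1 2210 of 3203 (69.0%) had the same sign against 59.7% of all, 936 (29.2%) were called with it and 176 with the opposite one.

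Fatty acid oxidation was lower without Ppara in this pair too, with 7 of 20 mitochondrial genes lower and 1 higher (median -0.90), and 12 of 20 peroxisomal genes lower and 1 higher (median -1.02). Without Cpt2L-/- Ppara KO replicate 1 the counts were 17 lower and 1 higher (median -1.47) and 15 lower and 1 higher (median -1.48). The gene values turned on that library. With all libraries Fabp1 was at -1.08 (adjusted p = 0.491), Cyp4a14 at -3.22 (adjusted p = 0.0350) and Ehhadh at -3.29 (adjusted p = 0.0585), so that Cyp4a14 alone of these 3 was called, and without it they were at -4.01, -5.31 and -6.02, all called. The ER chaperones were higher in 12 of 21 genes (median 0.78), or in 17 (median 0.86) without it, and the lysosomal genes were lower in 15 of 46 (median -0.45), or 18 (median -0.38). Rragd was at -2.52 in this pair, or -2.43 without that library. The urea cycle list, which was even in the first pair, had 18 of 26 genes higher and 0 lower (median 1.47), or 22 higher (median 1.72) without the library, and the acute phase list had 13 of 24 higher (median 1.17), or 14 (median 1.23).

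**Figure D4:**
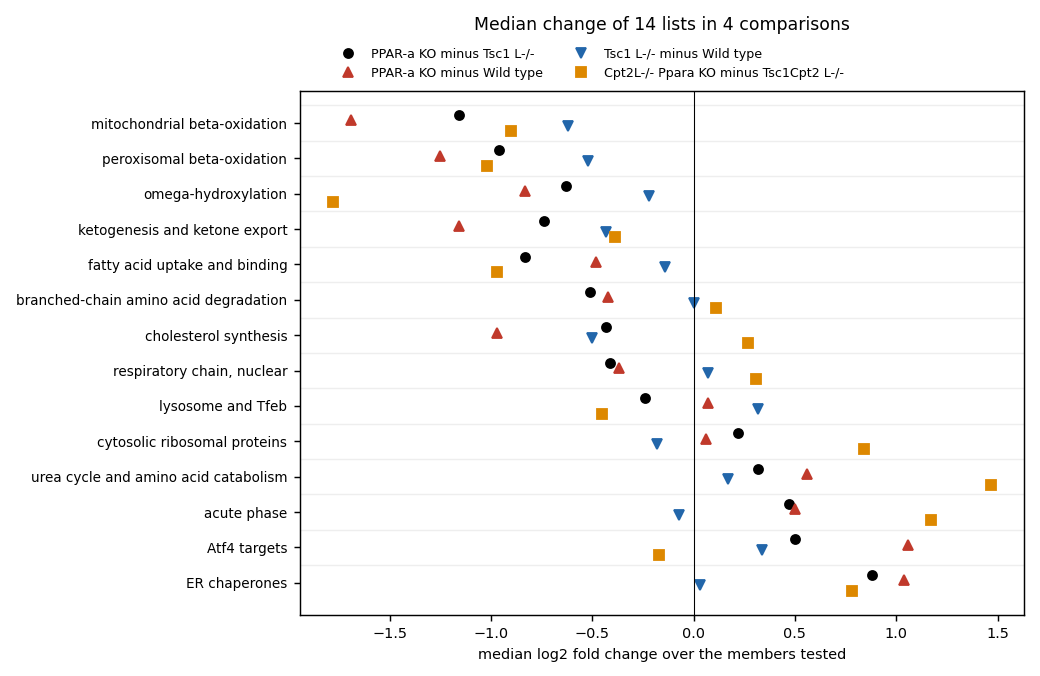
Median log2 fold change of 14 gene lists (rows) in 4 comparisons: PPAR-a KO over Tsc1 L-/-, PPAR-a KO over Wild type, Tsc1 L-/- over Wild type, and Cpt2L-/- Ppara KO over Tsc1Cpt2 L-/- with all libraries. The mitochondrial beta-oxidation median is -1.16, -1.69, -0.62 and -0.90, and that of the urea cycle list moves from 0.32 in the first to 1.47 in the last. Without Cpt2L-/- Ppara KO replicate 1 the last values are -1.47 and 1.72.

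Whether the contrast itself changed with Cpt2 was tested as the difference of the 2 contrasts over 16 libraries. It was called in 1656 of 13520 genes (12.2%), 844 higher and 812 lower with Cpt2 deleted, and in 1863 of 13802 (13.5%) without Cpt2L-/- Ppara KO replicate 1. The count was 960 without Tsc1Cpt2 L-/- replicate 4. Pdk4 showed the largest change among the genes named here, from 3.85 with Cpt2 to -3.33 without it (difference -7.20), and Plin2 went from 1.39 to -1.01 (difference -2.40). In the Cpt2-deleted pair itself -3.33 was called (adjusted p = 0.0158) and -1.01 was not (adjusted p = 0.105), while without Cpt2L-/- Ppara KO replicate 1 Plin2 was called at -1.55 (adjusted p = 0.000979). Both differences stayed called without it, at -8.31 (adjusted p = 0.00318) and -2.93 (adjusted p = 0.00118). Mthfd2 went from 3.01 to -0.32 (-0.99 without that library), Cdkn1a from 3.04 to -0.33 (-0.38) and Cyp7a1 from -4.23 to 0.67 (0.64). In the Atf4 list the difference was lower in 9 genes and higher in 0, against 6.01% and 6.24% of all genes, and in 10 and 0 without the library, against 6.63% and 6.87%. For the urea cycle list it was higher in 10 and lower in 0 of 26, and in 14 and 0 without the library, and for the nuclear respiratory chain genes in 18 and 0, or in 10 and 0. The mitochondrial beta-oxidation list had 1 lower and 0 higher of 20, or 3 and 0 without the library, and the ER chaperones 1 lower and 0 higher of 21 either way. The 1 chaperone was Hspa5 with all libraries (difference -1.74), whose adjusted p was 0.0770 without that library. Of 24 genes named by rule whose difference was called, 22 were still called without it. Another 4 genes named by rule were called only without it: Ehhadh (-3.07, adjusted p = 0.0168), Pck1 (1.38, adjusted p = 0.00868), Mgll (-1.47, adjusted p = 0.00267) and Deptor (1.22, adjusted p = 0.0297).

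**Figure D5:**
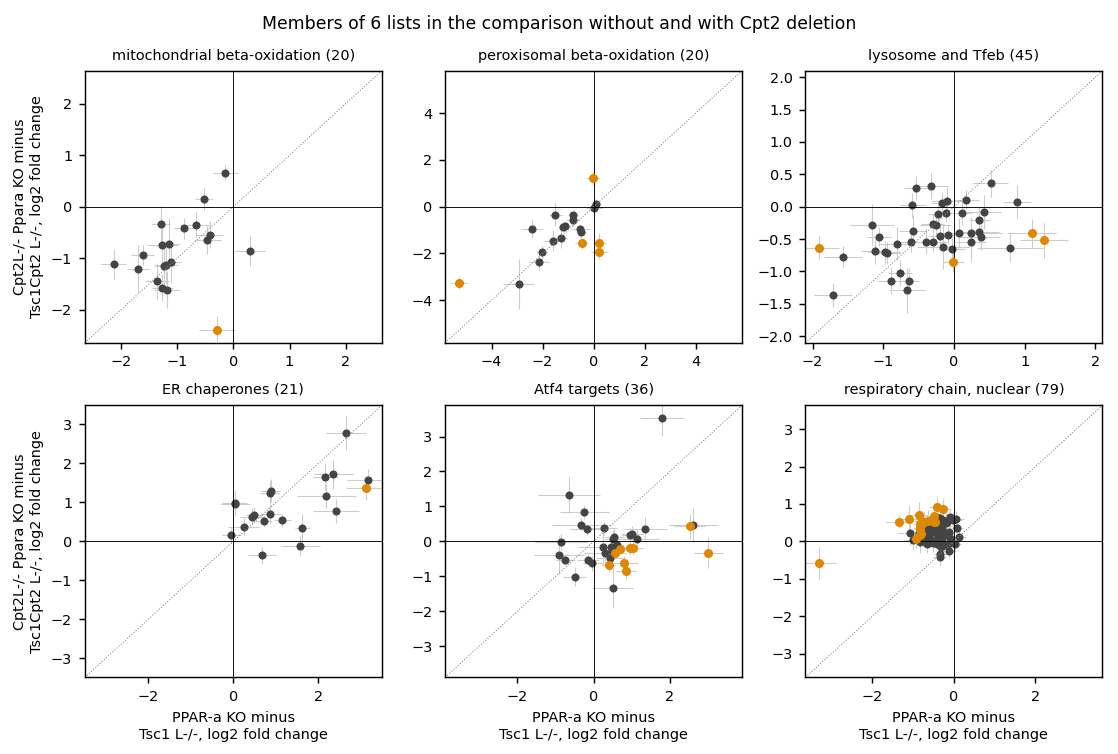
Log2 fold change of the members of 6 gene lists without Ppara over without Tsc1, in livers with Cpt2 (horizontal axis) and with Cpt2 deleted (vertical axis), with bars of 1 SE and orange points where the difference of the contrasts was called. Beta-oxidation genes lie mostly below 0 on both axes, while 9 genes of the Atf4 list are orange and lie below the diagonal.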

How the data were processed

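Liver RNA from 24 mice was sequenced by the authors as stranded mRNA libraries with single reads of 75 bases. The deposited read counts per gene are whole numbers without normalization. A second table deposited by the authors holds FPKM values, these counts divided by gene length and library total. The submitters' notes name Bowtie 0.12.2, TopHat, STAR 2.5 and HTSeq 0.6.1, and the builds mm8 and mm9, with no role given. The table's coordinates are those of GRCm38: 34434 of the 34490 genes matched by identifier overlapped the GENCODE M21 gene. The strand setting is not given in the sources used here, so genes that overlap or have near copies are uncertain.

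Counts of the 8 libraries were filtered with edgeR's filterByExpr (minimum count 10, minimum total 15), scaled by TMM and fitted with edgeR 4.0.16 (quasi-likelihood, robust) by genotype alone in R 4.3.3, with Benjamini-Hochberg adjustment at 0.05. The study's text states no design for these libraries, so edgeR was used as the main test. Other contrasts were fitted in the same way on their own libraries, and the difference of the 2 contrasts on 16. The 31 pathway and 10 marker lists, and the members named, were chosen with earlier results of these data known. Named genes are the targeted genes and 16 genes of fasting metabolism, the 2 largest rises and falls per list and the 10 per direction overall (called, groups separate, mean of at least 5 CPM), and up to 5 per targeted locus and some whose calls were unstable were left out after their values were seen. Members of a list given by log2 fold change alone are named as examples, chosen after their values were seen. On data simulated from the libraries of the direct comparison (12596 genes), the test recovered 32 of 99 genes changed by 1 on the log2 scale and 76 of 94 changed by 2, with 7 false calls among 115. Alternatives were DESeq2 1.42.0, RLE size factors, no filter, all 24 libraries, a replicate block, limma 3.58.1 on log2(FPKM + 1) and log2(FPKM + 0.1), a minimum log2 change of 1, and each library left out in turn. Some members are not reported here.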

Additional observations from a re-analysis of the deposited data

Results flagged for a closer look

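Some single libraries lay outside the range of their group by more than Dixon's criterion allows at the 95% level. This was so in 13 of the 168 gene and group combinations tested, where chance gives about 1 in 20, and 4 of the 13 concerned Tsc1 L-/- replicate 3. That library held 331 CPM of Srebf1 (23.4 to 40.9 in the other 3), 259 CPM of Fasn (41.9 to 75.8), 58.2 CPM of Acat2 (23.3 to 29.2) and 3.47 CPM of Hsd3b5, a male-biased steroid enzyme (0.0605 to 0.407). The difference for Hsd3b5 was 4.29 with that library (adjusted p = 0.0129) and 6.41 without it. In PPAR-a KO replicate 1, Eci1 was at 57.6 CPM (46.0 to 47.2), Acot13 at 19.5 CPM (12.9 to 13.7) and Rictor at 34.9 CPM (44.8 to 46.0), and in PPAR-a KO replicate 2 Pklr was at 93.6 CPM (56.2 to 57.5). In Tsc1 L-/- replicate 1, Hspa5 was at 1088 CPM (546 to 604) and Gldn at 0.423 CPM (0 in the others). Tsc1 L-/- replicate 2 held 3.39 CPM of Sult1e1 (0 to 0.187) and 0.814 CPM of Moxd1 (0 to 0.0623), and Tsc1 L-/- replicate 4 held 68.5 CPM of Mccc2 (79.8 to 81.4).

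The contrast of the 2 genotypes differed between livers with Cpt2 and livers without it in 24 of the genes named, by edgeR's test of the difference itself over 16 libraries, whose values follow. The sign of the estimate turned for Pdk4 (difference -7.20), Plin2 (-2.40), Sqstm1 (-1.5), Mthfd2 (-3.31), Cdkn1a (-3.37), Grn (-1.80), Acot13 (1.68), Cyp7a1 (4.92), Cyp2c38, a cytochrome P450 (4.28), Dbp (2.22), Ppargc1a (2.5) and the macrophage receptor Vsig4 (2.27). It turned also for Vwf (-1.61, from 1.44 to -0.18), but not without the library named at the end, where Vwf was at 0.10 and Acot13, at 0.34 with all libraries, was at 0.01. Without that library the turned estimates were called with Cpt2 deleted by edgeR for Pdk4, Plin2, Mthfd2, Ppargc1a and Vsig4. They were not called for Sqstm1 (-0.40, adjusted p = 0.196), Cdkn1a (-0.38, 0.616), Grn (-0.31, 0.24), Acot13 (0.959), Cyp7a1 (0.64, 0.589), Cyp2c38 (1.57, 0.0504) and Dbp (0.64, 0.218). For these the turn rests on the estimate alone. The estimate came close to 0 with Cpt2 deleted for Tsku (-2.40, to 0.01), Slc16a6 (-2.38, to 0.23), Nr1i2 (-1.39, to 0.06) and Enho, the gene of the secreted peptide adropin (2.30, to -0.01). It kept its direction with a smaller size for Abcd2 (2.05), Vnn1 (3.46), Eda2r (3.15), Gabarapl1 (1.29), Otc (1.0), the aspartate and glutamate carrier Slc25a13 (1.02) and Hspa5 (-1.74). Without the library labelled Cpt2L-/- Ppara KO replicate 1, whose level of Fabp1 goes against its label, all 24 differences kept their sign, with that of Vnn1 at 2.34 and that of Pdk4 at -8.31, 22 of the 24 differences were still called, and those of Hspa5 (adjusted p = 0.0770) and Vnn1 (0.0740) were not, while 4 other named genes gained a call.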

How the results depend on the processing

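Of the 84 genes named by rule, 77 were called, and 59 of these kept call and direction under every alternative. Members named only as examples are not among the 84. Most of the 84 were chosen as called with separate groups in these same data, and some with unstable calls were left out. The 59 therefore do not measure how stable calls are over all genes. Calls of the direct comparison were 3238, against 3227 with RLE size factors, 2739 unfiltered, 4035 with DESeq2, 4860 with all 24 libraries (2516 higher), 2417 with the replicate block, 2781 and 2800 with limma on log2(FPKM + 1) and log2(FPKM + 0.1), and 1689 (782 higher, 907 lower) at a minimum log2 change of 1. On log2(FPKM + 1) 1117 were higher and 1664 lower, against 1659 and 1579 by edgeR. At the minimum change the other counts were 1800 (PPAR-a KO over Wild type), 214 (Tsc1 L-/- over Wild type) and 1182 (the Cpt2-deleted pair). DESeq2 called 1087 genes in Tsc1 L-/- over Wild type, and all 24 libraries gave 2644 for the difference of the contrasts. The cause of these moves was not tested. Leaving out 1 library gave 1867 to 3567 calls in the direct comparison (910 to 1812 higher, 953 to 1755 lower), 2321 to 4177 and 198 to 527 against Wild type, 1202 to 3337 in the Cpt2-deleted pair and 960 to 2096 for the difference. Asns, not called at -0.24, changed sign to 0.16 with the block, 0.06 and 0.09 with limma, and ranged from -0.59 to 0.44 when 1 library was left out (0.44 without Tsc1 L-/- replicate 2). Replicate numbers did not pair the samples: deviations of same-numbered libraries correlated at -0.027, 0.134, -0.020 and -0.089. Under the block, with 2417 genes called in all, Pdk4, Gdf15, Pklr, Atf3, Sult1e1 and Cdkn1a lost their calls. Without the filter 9 named genes lost theirs: Fgf21, Pdk4, Bdh1, Gdf15, Pklr, Atf3, Sult1e1, Hsd3b5 and Cdkn1a, at adjusted p-values of 0.0519 to 0.0794. Depth limits genes near 3 reads per library, which stand for 0.137 to 0.226 CPM, and on simulated data 4 libraries a group recover few changes of 1 on the log2 scale.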
